A study of Mus musculus with 6 samples.

Results

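The Fc gamma receptor genes are the mouse genes for cell surface receptors that bind the constant part of IgG, together with 1 signalling chain and 1 related IgG carrier. They were chosen by gene symbol as Fcgr1, Fcgr3, Fcgr4, Fcgr2b, Fcer1g and Fcgrt, which are 6 of the 55335 genes in the table, and all 6 were expressed well enough to be tested. RNA-seq was available for 6 BMDM libraries (bone marrow-derived macrophages, which the labels describe as marrow cells cultured with 25 ng/ml M-CSF for 7 days). All BMDMs were of WT genotype and were co-cultured for 24 h with neutrophils isolated from the lesion of the injured spinal cord at 3 dpi (days after injury). In 3 libraries the labels name Cd177 WT neutrophils and in 3 they name Cd177 KO neutrophils, from Cd177-/- mice. The study's animals were male. BMDMs were then recovered by FACS, with no gate given in the labels. No BMDMs kept without neutrophils were analysed here, so each difference is between the 2 co-cultures and not from a resting state. Neither the number of animals behind a library nor whether the libraries came from separate cultures is stated, so the p-values measure the spread between these libraries, which may be technical.

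Receptors for IgG let macrophages take up antibody-coated particles and immune complexes. FcγRI (Fcgr1), FcγRIII (Fcgr3) and FcγRIV (Fcgr4) are activating receptors that signal through the activation motif of the common γ chain (Fcer1g), whereas FcγRIIB (Fcgr2b) carries an inhibitory motif of its own and recruits the phosphatase SHIP1. The balance between activating and inhibitory receptors sets how strongly a macrophage responds to IgG. In general, interferon gamma is known to raise Fcgr1 and Fcgr4, and interleukin 4 to raise Fcgr2b. FcRn (Fcgrt) works inside the cell, where it pairs with β2-microglobulin and carries IgG and albumin back from endosomes.

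Of the activating receptor genes, Fcgr1 and Fcgr4 were lower in the libraries labelled KO, 3.55-fold and 2.15-fold, and the inhibitory Fcgr2b was 1.99-fold higher. Fcgrt was 3.11-fold higher. Fcgr3 and Fcer1g, the most abundant of the 6, did not pass the test. In all, 4 of the 6 genes were called at an adjusted p under 0.05 (limma with Benjamini-Hochberg adjustment), 2 higher and 2 lower. Among all 13367 tested genes 37.6% were called, 27.1% higher and 10.5% lower. For 5 of the 6 genes the WT and KO values were fully separate, as they were for 51.9% of all tested genes. The median log2 fold change was 0.09 over the 6 genes and 0.19 over all tested genes.

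The values are FPKM as deposited by the authors (fragments per transcript length, relative to the total of a library), and log2 fold changes are of FPKM + 0.5, KO minus WT, which understates changes of low genes. The FPKM of a library summed to between 302532 and 340717, and steps in low values put the depth at about 17.6 M to 20.3 M fragments per library, an estimate only, since whole fragments could not be recovered from them. Of all calls, 72.0% were higher in the libraries labelled KO with the values as deposited and 47.5% after median-of-ratios scaling (2046 higher and 2264 lower), so a direction near 0 depends on the scaling. The median log2 fold change of all genes was 0.19 as deposited and -0.01 after that scaling. Cd177 itself was low, with 0.545, 0.309 and 0.521 FPKM in WT replicates 1, 2 and 3 against 1.79, 1.84 and 2.28 FPKM in the KO replicates. The labels give the genotype of the neutrophils and all BMDMs were WT, so these values do not settle whether the labels are right, which was not tested. Every direction given here rests on the labels as they stand.

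**Figure D1:**
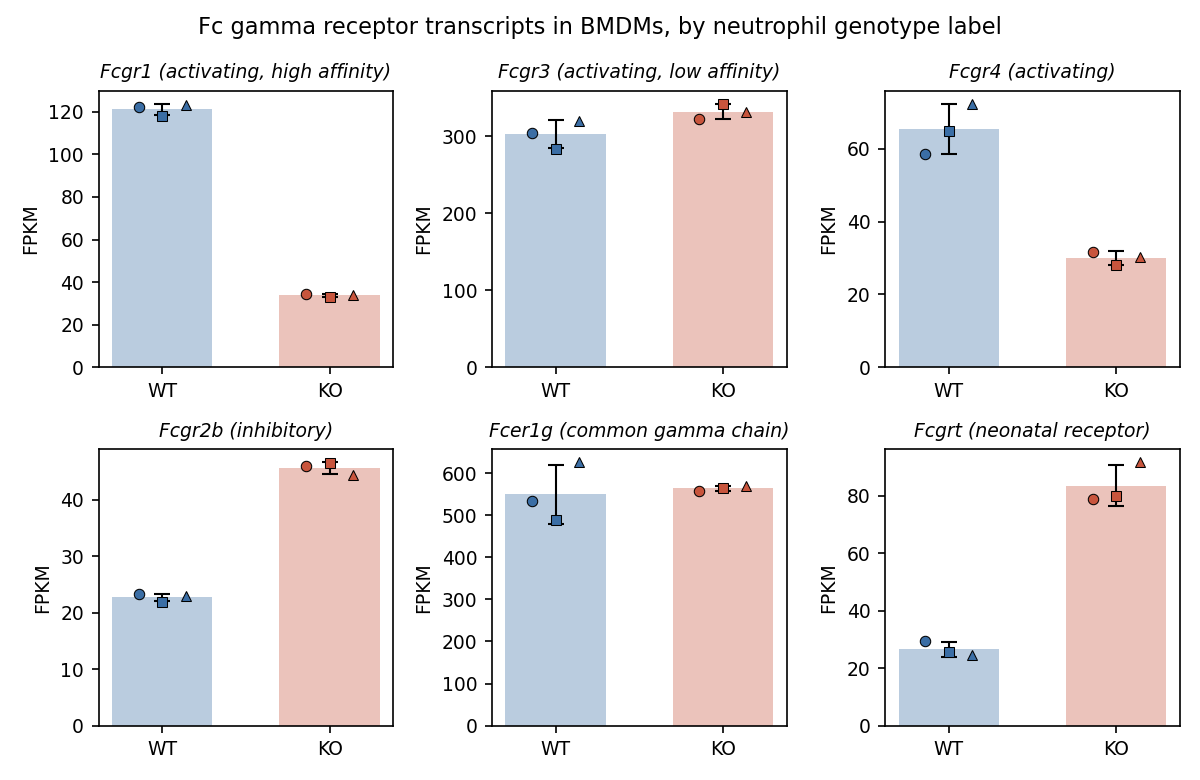
FPKM of each Fc gamma receptor gene in the 3 libraries labelled WT (blue) and the 3 labelled KO (red), with bars for means, error bars for SD, and circles, squares and triangles for replicates 1, 2 and 3. Fcgr1 and Fcgr4 sit lower in every KO library and Fcgr2b and Fcgrt higher, while the mean differences of Fcgr3 and Fcer1g, small and positive as deposited, turn negative under median-of-ratios scaling.

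The activating receptor genes are shown first by the sequence before their start site, since they belong to 1 receptor class, of which Fcgr1 and Fcgr4 were called and Fcgr3 was not. The RefSeq promoter table (GRCm38.p6, 250 bases before to 50 after each start) held all 6 genes, with 2 starts for Fcgr3. The 120 bases before the start are given 5′ to 3′ on the gene's strand, and capitals mark the motifs. Fcgr1 lies on chromosome 3 (minus strand, chr3:96293970-96294089), Fcgr4 on chromosome 1 (plus strand, chr1:171018806-171018925), and Fcgr3 on chromosome 1 (minus strand, chr1:171059404-171059523).
Fcgr1: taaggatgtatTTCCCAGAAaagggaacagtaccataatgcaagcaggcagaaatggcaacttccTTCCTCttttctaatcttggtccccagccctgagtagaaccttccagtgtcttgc
Fcgr4: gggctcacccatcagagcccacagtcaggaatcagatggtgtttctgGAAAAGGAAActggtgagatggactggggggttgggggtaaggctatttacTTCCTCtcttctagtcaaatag
Fcgr3: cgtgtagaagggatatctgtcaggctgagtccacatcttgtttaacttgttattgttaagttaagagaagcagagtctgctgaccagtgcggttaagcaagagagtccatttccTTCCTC

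Motifs were searched on both strands of all 32851 promoters. The gamma-activated site TTCNNNGAA was in 8.3% of promoters and, of the 6 genes, in Fcgr1 alone, at bases -109 to -101. The core of the interferon-stimulated response element (GAAA, any 2 bases, GAAA) was in 3.44% of promoters and, of the 6 genes, in Fcgr4 alone, at bases -73 to -64. GAGGAA, the core bound by the macrophage factor PU.1, was in 28.3% of promoters and in Fcgr1, Fcgr4 and Fcgr3, each time on the opposite strand as TTCCTC. Fcgr2b, Fcer1g and Fcgrt held none of the 3 motifs in this window. The RefSeq starts of Fcgr3 and Fcgr2b lie inside the gene spans given below, which reach chr1:171064935 and chr1:170976547 on the minus strand. Bases before those outer ends were not searched. A match is a description of letters and not of binding.

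Fcgr1 (ENSMUSG00000015947, GRCm38 chr3:96282909-96293969, minus strand) encodes the receptor of high affinity, which binds single IgG molecules. It stood at 122, 118 and 123 FPKM in WT replicates 1, 2 and 3 and at 34.3, 33.0 and 34.1 FPKM in the KO replicates. The 3 KO values lie far under the lowest WT value and within 2 FPKM of each other. The log2 fold change was -1.83 (SE 0.070, 95% confidence interval -1.99 to -1.66, adjusted p 7.16e-06, limma with Benjamini-Hochberg adjustment). Only 2.71% of all tested genes changed by as much in either direction. Relative to the median of all genes, Fcgr1 fell by 2.02 on the log2 scale.

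Fcgr4 (ENSMUSG00000059089, chr1:171018920-171029761, plus strand) encodes an activating receptor of intermediate affinity that binds IgG2a and IgG2b. Its values were 58.7, 64.8 and 72.4 FPKM in the WT replicates and 31.7, 28.0 and 30.4 FPKM in the KO replicates. All KO libraries were below all WT libraries, and the WT libraries were more spread. On the log2 scale the fold change was -1.10 (SE 0.10, 95% confidence interval -1.35 to -0.86, adjusted p 0.000342, limma), and 9.20% of tested genes changed by as much. Neutrophils also express Fcgr4 and Fcgr3, and 9 of the 11 tested neutrophil markers rose in the libraries labelled KO (27.1% of all tested genes did) while Mmp8 fell. The summed level of the 14 markers was 202 to 261 FPKM in WT and 555 to 570.2 FPKM in KO, and Ly6g, which defines neutrophils, was listed at 0 in each WT library and at 0.660, 0.547 and 0.403 FPKM in KO. The part of these transcripts in the values of Fcgr4 and Fcgr3 was not tested.

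Fcgr3 (ENSMUSG00000059498, chr1:171051174-171064935, minus strand) encodes the activating receptor of low affinity for immune complexes and was the most abundant of the 4 surface receptor genes in every library. It stood at 304, 284 and 320.3 FPKM in the WT replicates and at 323, 343 and 332 FPKM in the KO replicates. The lowest KO value was just above the highest WT value, so the groups did not overlap, but the gap was small against the spread. The log2 fold change of 0.14 as deposited (SE 0.082, 95% confidence interval -0.06 to 0.33, adjusted p 0.237, limma) became -0.09 under median-of-ratios scaling. The interval allows a ratio of KO to WT between 0.959 and 1.26.

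Fcgr2b (ENSMUSG00000026656, chr1:170958617-170976547, minus strand) encodes the only inhibitory receptor among the 6 genes. Its values were 23.3, 21.9 and 22.9 FPKM in the WT replicates and 45.9, 46.4 and 44.4 FPKM in the KO replicates. Each KO library was about 2-fold above each WT library, and replicates lay close together. The log2 fold change was 0.99 (SE 0.073, 95% confidence interval 0.82 to 1.16, adjusted p 0.000121, limma), with 11.7% of tested genes changed by as much. In transcript sequence, 166 of the 1733 distinct 50-base words of Fcgr3 (9.58%) also occur in Fcgr2b, and how the authors split such reads is not given in the sources used here. Since Fcgr3 was the more abundant, the weight of these words differs from their number: with fragments spread evenly over words, those from the shared words of Fcgr3 would equal 39.0% of the signal of Fcgr2b in WT and 21.3% in KO. If counted for Fcgr2b, such fragments would raise its level by a larger part in WT than in KO, so its rise would be understated. The sizes of its level, its fold change and its ratios are uncertain to that degree, more than the intervals given. A further part of the words of Fcgr2b, to 4.38% in all, occurs in other genes. The words of Fcgr1, Fcgr4, Fcer1g and Fcgrt occurred in no other gene.

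B cells carry Fcgr2b as their main Fc receptor. Of 8 B cell markers, 3 were tested and 2 rose (27.1% of all tested genes did). Ighm rose from 0.390, 0.293 and 0.0573 FPKM to 9.66, 9.43 and 10.5 FPKM, and Cd79b from 0.805, 1.01 and 0.654 to 3.89, 3.55 and 4.87 FPKM. Cd22, the third tested, stood at 4.09 to 5.46 FPKM over all libraries and was not called (log2 fold change 0.06, adjusted p 0.769, limma). The summed level of the list was 4.89 to 6.47 FPKM in WT and 18.4 to 19.5 FPKM in KO. The defining markers Ms4a1, Pax5 and Cd79a reached at most 0.0519 FPKM in any library and Ighd was listed at 0. The part of B cell transcripts in the rise of Fcgr2b was not tested. In bulk libraries, fewer cells of a type and less RNA per cell cannot be told apart.

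Fcer1g (ENSMUSG00000058715, chr1:171229572-171234365, minus strand) encodes the common γ chain, which the activating receptors need for signalling and for stable surface expression. It stood at 533, 488 and 626 FPKM in the WT replicates and at 557, 565 and 569.8 FPKM in the KO replicates. The KO values fell inside the range of the WT values. The log2 fold change was 0.05 as deposited (SE 0.11, 95% confidence interval -0.21 to 0.30, adjusted p 0.772, limma) and -0.18 under median-of-ratios scaling, and the interval allows a ratio of KO to WT from 0.863 to 1.23.

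Fcgrt (ENSMUSG00000003420, chr7:45092990-45103851, minus strand) encodes the heavy chain of FcRn. Its values were 29.6, 25.5 and 24.7 FPKM in the WT replicates and 79.0, 80.04 and 91.7 FPKM in the KO replicates. The lowest KO library was well above the highest WT library. Fcgrt had a log2 fold change of 1.64 (SE 0.10, 95% confidence interval 1.39 to 1.88, adjusted p 6.44e-05, limma), and 3.61% of tested genes changed by as much. B2m, the β2-microglobulin gene whose product FcRn needs, moved the other way, from 2441, 2536 and 3399 FPKM in WT to 1203, 1213 and 1460.0 FPKM in KO (log2 fold change -1.10, SE 0.16, adjusted p 0.00205, limma). The ratio of Fcgrt to B2m was 0.0121, 0.0100 and 0.00727 in WT and 0.0657, 0.0660 and 0.0628 in KO, 6.75-fold higher. B2m remained far more abundant than Fcgrt in every library.

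FPKM is per length, so levels can be roughly ordered between genes, though the transcript lengths used are not given in the sources used here. In WT the order was Fcer1g, Fcgr3, Fcgr1, Fcgr4, Fcgrt and Fcgr2b. In KO it was Fcer1g, Fcgr3, Fcgrt, Fcgr2b, Fcgr1 and Fcgr4. In neither group did the ranges of neighbouring genes overlap. As deposited, Fcgr2b was thus the lowest of the 6 in WT (mean 22.7 FPKM, against 26.6 FPKM for Fcgrt). In KO it stood above both Fcgr1 and Fcgr4 (45.6 FPKM, against 33.8 and 30.0 FPKM). Fragments from the words shared with Fcgr3 would equal 39.0% of the signal of Fcgr2b in WT and 21.3% in KO. If counted for Fcgr2b they would raise its level, so without them it would still be lowest in WT. Its distance from its neighbours is uncertain, and its place in KO without such fragments was not tested.

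The question of activating against inhibitory receptors was addressed with ratios within a library, which do not depend on the scaling between libraries. The ratio of Fcgr1 to Fcgr2b was 5.26, 5.39 and 5.38 in the WT replicates and 0.748, 0.710 and 0.768 in the KO replicates, 7.20-fold lower (log2 difference -2.85, SE 0.035). The ratio of Fcgr4 to Fcgr2b was 2.52, 2.96 and 3.16 in WT and 0.692, 0.603 and 0.684 in KO, 4.36-fold lower (log2 difference -2.12, SE 0.12). Both ratios were above 1 in every WT library and below 1 in every KO library. The ratio of Fcgr3 to Fcgr2b was 13.1, 12.9 and 14.0 in WT and 7.04, 7.37 and 7.48 in KO, 1.83-fold lower (log2 difference -0.87, SE 0.044). For each of the 3 ratios the groups did not overlap, and the exact two-sided permutation test gave p = 0.1 (0.1 adjusted over the 3 ratios), the smallest that 3 libraries against 3 allow. Since all 3 ratios share Fcgr2b, they are not independent of each other.

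**Figure D2:**
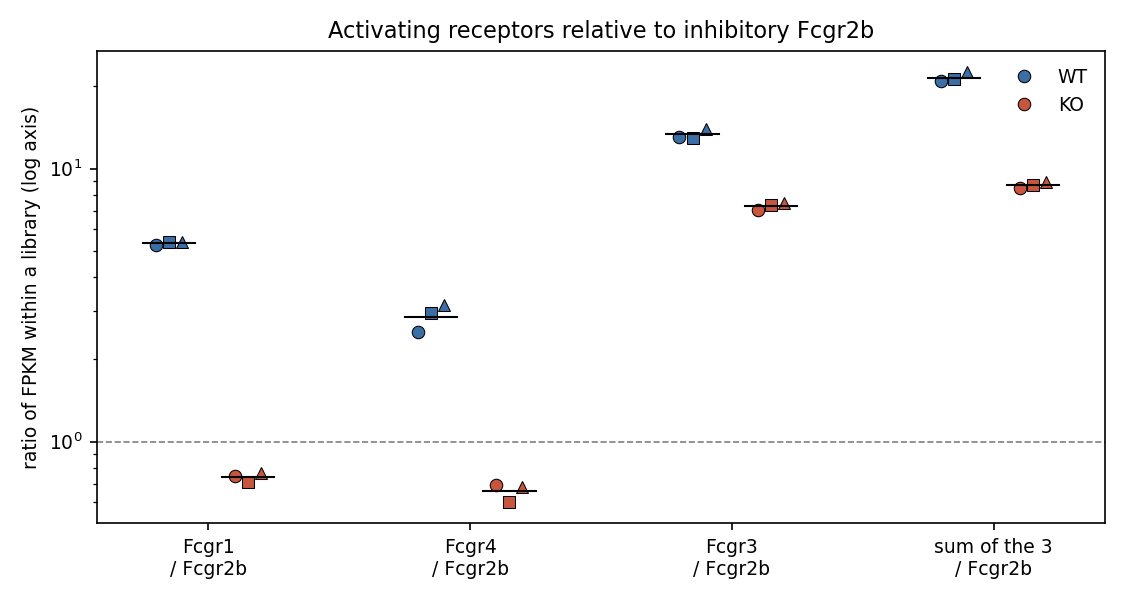
Ratio of FPKM of each activating receptor gene, and of their sum, to the inhibitory Fcgr2b in each library, on a log axis; blue is WT, red is KO, marker shape is the replicate number, lines are geometric means and the dashed line is a ratio of 1. Every KO library lies under every WT library, and the ratios of Fcgr1 and Fcgr4 cross 1.

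The sum of Fcgr1, Fcgr3 and Fcgr4 over Fcgr2b was 20.9, 21.3 and 22.5 in WT and 8.48, 8.69 and 8.93 in KO, 2.48-fold lower (log2 difference -1.31, SE 0.040). Activating transcripts still exceeded those of Fcgr2b in each KO library, and most of the sum was Fcgr3. As the mean of the 3 single log2 ratios, in which each activating gene weighs the same, the difference was -1.95.

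The make-up of the 4 surface receptor genes changed more than their total. Their summed FPKM was 512 ± 25.1 in WT and 442 ± 7.66 in KO (SD, n = 3). The share of Fcgr1 in that sum was 23.7% ± 0.726 in WT and 7.65% ± 0.291 in KO, and that of Fcgr4 was 12.7% ± 1.05 and 6.81% ± 0.542. The share of Fcgr3 was 59.1% ± 0.927 in WT and 75.2% ± 0.937 in KO, and that of Fcgr2b was 4.44% ± 0.168 and 10.3% ± 0.240. Shares sum to the whole, so a larger share of Fcgr3 does not mean a higher level. The summed level of Fcgr1 and Fcgr4 relative to Fcgr3 was 0.616 in WT and 0.192 in KO (geometric means, log2 difference -1.68). Relative to Fcer1g, the sum of the 3 activating genes was 0.895 in WT and 0.703 in KO (log2 difference -0.35).

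Around the receptors, genes of the inhibitory arm were described first. Of 11 genes that act downstream of inhibitory receptors or dampen activating signals (phosphatases, adaptors, the kinase gene Csk and the ubiquitin ligase gene Cblb), 5 rose (45.5%, against 27.1% of all tested genes), 0 fell and 6 were not called, with a median log2 fold change of 0.25. The leading 3 were Dok2, Inpp5d and Ptpn6. Inpp5d, which encodes SHIP1, the phosphatase recruited by FcγRIIB, was at 22.1, 22.3 and 14.7 FPKM in WT and 35.8, 37.1 and 29.9 FPKM in KO (log2 fold change 0.80, SE 0.18, adjusted p 0.0128, limma). Ptpn6, which encodes the phosphatase SHP-1, was at 46.3, 40.9 and 39.5 FPKM in WT and 69.1, 66.1 and 67.1 FPKM in KO (log2 fold change 0.67, SE 0.087, adjusted p 0.00134). The groups did not overlap in either gene. With median-of-ratios or upper-quartile scaling, 3 genes of the list were called higher (27.3%, against 15.3% and 15.8% of all genes).

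Of 28 genes that carry or modulate the signal from the activation motif, 6 rose, 1 fell (3.57%, against 10.5%) and 21 were not called. The median was 0.23. The share that rose, 21.4%, stood below the 27.1% of all tested genes as deposited. In most alternatives the share of the list was above that of all genes. Among these were median-of-ratios scaling (17.9% against 15.3%), upper-quartile scaling (21.4% against 15.8%), the replicate block (42.9% against 31.8%) and no filter (21.4% against 11.3%). Under the first 2 of these, 5 and 6 genes were called higher and 4 and 3 lower. The shares called lower were 14.3% and 10.7%, against 17.0% and 16.2% of all genes. Vav2, a guanine nucleotide exchange factor, rose from 3.41, 3.25 and 2.57 FPKM to 8.40, 8.67 and 7.65 FPKM (log2 fold change 1.30, SE 0.12). Pik3r1, a regulatory subunit of phosphoinositide 3-kinase, and the adaptor Blnk also rose (0.98 and 0.82), and Malt1 fell by 0.84 on the log2 scale. Syk, the kinase that docks on the phosphorylated γ chain, was at 51.3, 50.8 and 34.8 FPKM in WT and 35.9, 37.1 and 30.4 FPKM in KO, with overlapping groups (log2 fold change -0.38, SE 0.17, adjusted p 0.120, limma). Syk was called lower in 4 of 16 alternatives, with adjusted p of 0.0237 and 0.0224 (limma) under median-of-ratios and upper-quartile scaling, 0.0211 with the block and 0.00651 without WT replicate 3. With the replicate number as a block, 12 genes of the list were called higher and 3 lower (10.7%, against 12.6% of all genes). WT replicate 3 held the lowest WT value of Syk. Without it, 4 genes were called lower (14.3%, against 12.7% of all genes) and 8 higher (28.6%, against 31.6%).

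Of 32 genes of the phagocytic cup, the actin structure that closes around a particle, 12 rose (37.5%, against 27.1% of all tested genes), 0 fell (against 10.5%) and 20 were not called, with a median of 0.24. The leading 3 were Dock2 (log2 fold change 1.92, SE 0.19), Coro1a (1.41, SE 0.12) and Elmo1 (1.33, SE 0.17). Dock2 and Elmo1 encode partners that activate Rac, and Coro1a encodes the actin-binding coronin 1A. Without WT replicate 3, 20 genes of this list were called higher (62.5%, against 31.6% of all genes) and 1 lower (3.1%, against 12.7%).

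**Figure D3:**
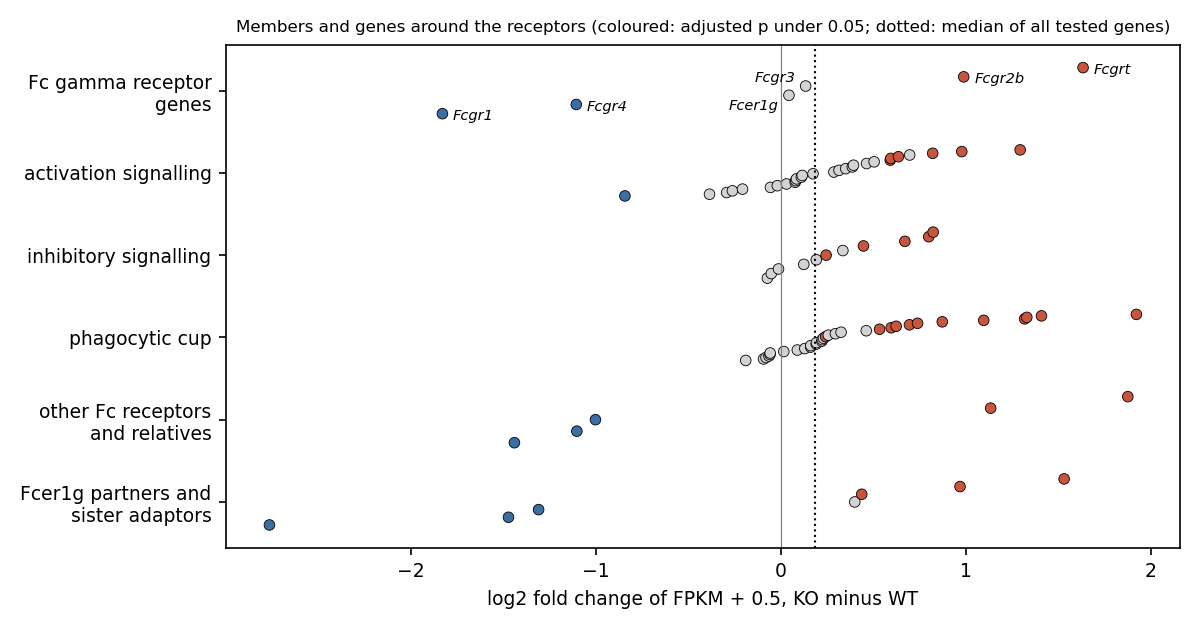
Log2 fold change of FPKM + 0.5, KO minus WT, for the 6 Fc gamma receptor genes and the 5 lists around them; each point is 1 tested gene, red is called higher, blue called lower, grey not called, and the dotted line is the median of all tested genes, 0.19. Fcgr1 and Fcgr4 lie to the left and Fcgr2b and Fcgrt to the right, while Fcgr3 and Fcer1g lie near 0, where their sign depends on the scaling.

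Among 14 other Fc receptors and relatives, 5 were tested, of which 2 rose (40%, against 27.1% of all tested genes) and 3 fell (60%, against 10.5%), with a median log2 fold change of -1.0006. Fcrls, a receptor-like relative, rose from 114, 110.4 and 129 FPKM to 256, 253 and 268 FPKM. Fcrl1 rose from 0.383, 0.436 and 0.388 FPKM to 2.57, 2.71 and 3.19 FPKM. Besides B2m and the low Fcrlb, Trim21, which encodes an Fc receptor of the cytosol, fell from 9.21, 7.29 and 8.76 FPKM to 3.47, 4.42 and 3.98 FPKM (SE 0.13 on the log2 scale, adjusted p 0.00130, limma). The genes of the IgE receptors, Fcer1a, Ms4a2 and Fcer2a, were listed at 0 in every library, as were Fcamr and Fcmr.

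The γ chain also serves receptors other than those for IgG. Of 13 such partners and sister adaptors, 11 were matched in the table and 7 tested, of which 3 rose (42.9%, against 27.1% of all tested genes), 3 fell (42.9%, against 10.5%) and 1 was not called. The median was 0.40. The 3 that fell are C-type lectins that sense microbes or damaged cells: Clec4e (Mincle) at 10.3, 11.7 and 11.3 FPKM in WT and 1.09, 1.22 and 1.33 FPKM in KO, Clec4d (log2 fold change -1.47) and Clec4n (log2 fold change -1.31). Pira2, a paired immunoglobulin-like receptor, rose by 1.53 on the log2 scale. Tyrobp, which encodes the adaptor DAP12, was at 543, 526 and 640.5 FPKM in WT and 795, 815 and 704 FPKM in KO (log2 fold change 0.44, SE 0.11, adjusted p 0.0211, limma). It was called in 9 of 16 alternatives, and not with median-of-ratios (0.21, adjusted p 0.248) or upper-quartile scaling (0.22, adjusted p 0.254), with no filter on low values, or without WT replicate 1 or 2 or KO replicate 1 or 2 (adjusted p 0.0680 to 0.0872). Fcer1g was not called. Whether Tyrobp and Fcer1g differ in their change was not tested.

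The cell type on the labels was checked against its markers. The 10 macrophage markers summed to 6720 to 8078 FPKM in WT and 7400.0 to 8107 FPKM in KO. Most of that sum was Lyz2 alone, at 4573, 4462 and 5731 FPKM in WT and 5963, 5881 and 6588 FPKM in KO. Adgre1 and Mertk rose (27.1% of all tested genes did), Cd14 fell (10.5% did), and the other 7 were not called. The fall of Cd14 was from 935, 911 and 1182 FPKM in WT to 93.7, 95.5 and 109 FPKM in KO. Apart from the neutrophil and B cell markers given above, markers of other cell types were also summed. The 8 NK cell markers were at most 0.152 FPKM and the 8 dendritic cell markers at most 0.787 FPKM in any library. Of 8 mast cell and basophil markers the defining Ms4a2, Cma1 and Tpsb2 were listed at 0, while Mcpt8 (up to 26.4 FPKM) and Hdc fell and the list summed to 16.7 to 28.5 FPKM in WT and 6.80 to 8.01 FPKM in KO. The part of such cells, of neutrophils and of B cells in the values of the 6 genes and of the genes in the lists around them was not tested. T cell markers summed to at most 1.70 FPKM.

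Genes with the most similar pattern over the 6 libraries were ranked by Pearson's r on log2(FPKM + 0.5) among 6827 genes whose mean level reached 5 FPKM. Fcgr1 was most like Sdc1, Xaf1 and Slamf8 (r of 0.9999 for Sdc1), and 604 genes reached an r of 0.95. Fcgr4 was most like Gm6548, P4ha1 and Ssr1, with 527 such genes. Fcgr2b was most like Lbr, Hpse and Dse (810 genes), and Fcgrt was most like Insig1, Kmt5c and 1190002N15Rik (809 genes). Fcgr3 (Capzb, Gm4204 and Sdf4) and Fcer1g (Rps13-ps1, Tsg101 and Snrpe) had 28 and 47. With 6 libraries in 2 groups, any gene that differs between the groups correlates with any other, and the points share library and depth, so these are descriptions.

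**Figure D4:**
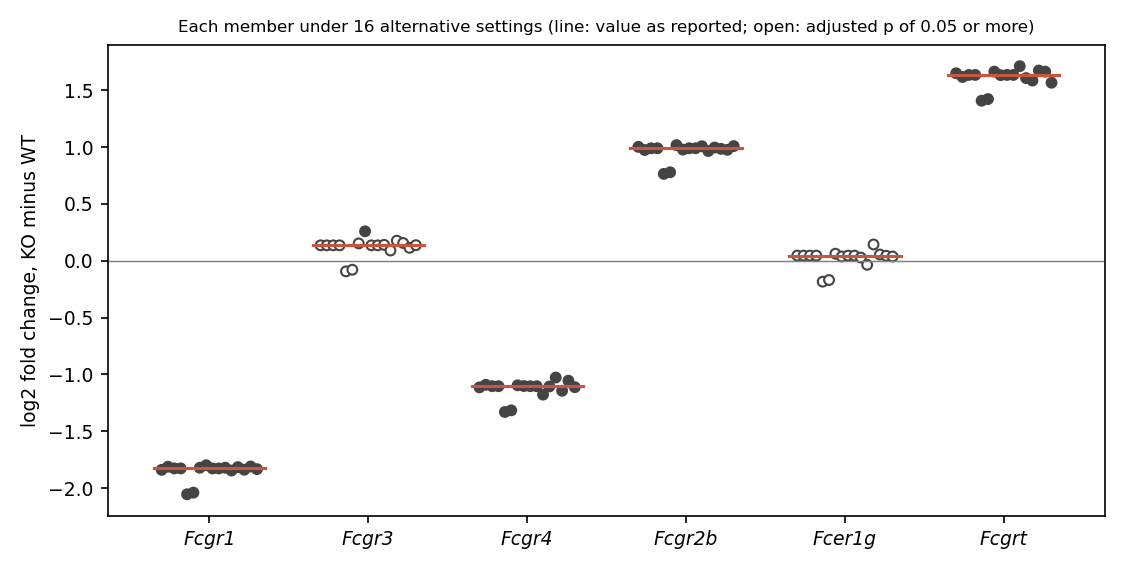
Log2 fold change of each Fc gamma receptor gene under 16 alternative settings (points; filled where the adjusted p was under 0.05, open otherwise), with the value as reported as a red line. Fcgr1, Fcgr4, Fcgr2b and Fcgrt keep their sign and stay filled at each setting, whereas Fcgr3 and Fcer1g cross 0 under median-of-ratios and upper-quartile scaling. Fcer1g also crosses 0 without WT replicate 2, and Fcgr3 is filled under quantile normalization only.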

How the data were processed

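RNA-seq of 6 BMDM libraries was analysed, 3 per group, grouped by the treatment label. The deposited table holds the authors' FPKM of each gene in each library. The submitters' processing notes name fastp 0.17.1, HISAT2 2.1.0, DESeq2 1.18.1 and R 3.4.3, and the quantification tool, annotation and genome build are not given in the sources used here. The labels and the methods name different extraction reagents, library kits and sequencers. FPKM depends on the total of the library, so a change in abundant genes shifts all others. Whole fragments could not be recovered (39.7% to 43.5% of low values lay no further than 0.1 from a whole multiple, where chance gives 20%), so no count test was run. Symbols and positions came from GENCODE M21 (GRCm38), which matched 55154 of 55335 identifiers (99.7%). Promoter sequences came from RefSeq (GRCm38.p6).

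The test was limma 3.58.1 (R 4.3.3, eBayes with trend, two-sided) of log2(FPKM + 0.5) for genes whose mean reached 0.5 FPKM, with Benjamini-Hochberg adjustment over all of them. The script was checked on simulated data. Ratios were compared with an exact permutation test over libraries (scipy 1.17.1), and the other steps used Python 3.11.15. Named are the 6 genes, B2m, Trim21, up to 3 called genes per list and direction with a mean of at least 1 FPKM, defining cell markers (1 of them is not reported here), and the 3 genes most like each receptor gene. Fcrlb, Syk, Csk, Cblb and the genes listed at 0 were named after their values were seen, and the promoter motifs were also chosen then. The 6 genes and the lists were chosen with earlier results of these data known. Alternatives were other pseudocounts, filters and scalings, a robust variance, the replicate number as a block and each library left out.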

Additional observations from a re-analysis of the deposited data

How the results depend on the processing

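Each of the 6 genes was refitted under 16 alternatives. Fcgr1 (-2.06 to -1.80), Fcgr4 (-1.33 to -1.03), Fcgr2b (0.76 to 1.02) and Fcgrt (1.41 to 1.71) kept their direction and their call in all 16, with adjusted p (limma) of at most 0.00291. The log2 fold change of Fcgr3 was -0.0934 with median-of-ratios and -0.0790 with upper-quartile scaling (adjusted p 0.503 and 0.606), and with quantile normalization it was 0.26 and called (adjusted p 0.0337). Leaving out 1 library gave Fcgr3 0.09 to 0.18. Fcer1g was -0.18 and -0.17 with these 2 scalings (adjusted p 0.316 and 0.394) and -0.0355 to 0.14 when 1 library was left out, negative without WT replicate 2. Under these scalings the median of all genes lay at -0.01 and -0.00094, against 0.19 as deposited. Genes called higher numbered 1756 at a mean of at least 5 FPKM, where 6835 genes were tested, 2046 with median-of-ratios and 2112 with upper-quartile scaling, and those called lower 2264 and 2157 with these scalings. With 1 library left out, 2420 to 4259 genes were called higher and 1059 to 1707 lower. The KO minus WT difference in the log2 ratio of Fcgr1 to Fcgr2b was -2.79 with FPKM + 1. It was -2.87 to -2.82 with 1 library left out. For the summed activating genes over Fcgr2b this difference was -1.33 to -1.28 with 1 library left out, and -1.95 as a mean of single ratios. The labels give both groups replicate numbers 1 to 3. Deviations of same-numbered libraries correlated at 0.116, 0.036 and 0.264, and WT replicate 1 correlated best with KO replicate 2, so the numbers were not taken as pairs. With the replicate number as a block, 4253 genes were called higher and 1681 lower. The call of none of the 6 genes changed (Fcgr1 adjusted p 0.0001, Fcgr3 0.173, limma). Of the activation list, 12 genes were called higher instead of 6 (42.9%, against 31.8% of all genes). FPKM gives no counts, so precision at low levels rests on the spread of 3 libraries.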
